A study of Mus musculus with 12 samples.

Results

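Histone acetyltransferases add acetyl groups to lysines and sirtuins take them off. The messages of 10 such enzymes were examined in mouse lung endothelial cells (MLECs) of control (CTR) mice and endothelial Sp1/Sp3 knockout (dKO) mice. The 10 genes were taken by symbol from the deposited expression table. They are 6 acetyltransferases (Ep300, Crebbp, Kat2a, Kat2b, Kat5 and Kat6a) and 4 sirtuins (Sirt1, Sirt2, Sirt3 and Sirt6), out of 28689 genes in the table. RNA-seq was made on 12 libraries, 6 from MLECs of CTR mice and 6 from MLECs of dKO mice. The dKO mice were VE-CAD-CreERT2+, Sp1 fl/fl and Sp3 fl/fl, and their Cre recombinase was driven by the VE-Cadherin promoter and switched on by tamoxifen. The CTR mice were Cre-negative littermates with the same floxed alleles and the same tamoxifen, a genotype the sample labels call WT. Cells came from lungs of adult mice, were bound first to CD31 beads and then to ICAM-2 beads, and were used at passages 1 to 3. The paper describes all animals it used as male. The number of mice behind a library is not given in the sources used here, so p-values measure the spread between these libraries.

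The p300 family (Ep300 and its paralog Crebbp, which encodes CBP) acetylates histones at enhancers and promoters and serves as a coactivator for many transcription factors. Kat2a (GCN5) and Kat2b (PCAF) are alternative catalytic subunits of the SAGA and ATAC coactivator complexes, Kat5 (TIP60) drives the TIP60 complex in transcription and DNA repair, and Kat6a (MOZ) acetylates histone H3 in a complex with Brpf, Ing and Meaf6 proteins. Sirtuins deacetylate lysines and consume NAD+ in the reaction. Sirt1 and Sirt6 act in the nucleus, Sirt2 mainly in the cytoplasm and Sirt3 in mitochondria. In endothelium Sirt1 is known for deacetylating eNOS and p53, and Sirt3 for activating mitochondrial antioxidant enzymes.

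Sp1 and Sp3 bind GC boxes, and the promoter windows of the genes are therefore shown here, from 250 bases before to 50 bases after each RefSeq start. A window was given for 9 of the 10 genes, all but Kat6a. The RefSeq sequences were made for GRCm38.p6 and each matched a single place in GRCm39, whose coordinates are used. Capitals mark GGGCGG or its reverse complement CCGCCC, with overlapping matches run together. The first 4 windows belong to the 3 genes without overlap between groups and the gene that rose in dKO cells, and the last to a gene that fell and had no match. Sirt3 and Kat5 had more than 1 window, and the one printed is the one with matches.
Sirt1 (chr10:63174765-63175064, minus strand): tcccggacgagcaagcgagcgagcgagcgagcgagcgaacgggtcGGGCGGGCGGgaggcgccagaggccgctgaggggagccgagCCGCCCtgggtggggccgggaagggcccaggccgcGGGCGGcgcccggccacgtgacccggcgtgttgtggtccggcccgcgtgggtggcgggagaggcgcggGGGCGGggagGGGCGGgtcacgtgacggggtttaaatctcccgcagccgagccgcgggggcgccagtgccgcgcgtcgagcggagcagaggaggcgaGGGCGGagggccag
Sirt3 (chr7:140461733-140462032, minus strand): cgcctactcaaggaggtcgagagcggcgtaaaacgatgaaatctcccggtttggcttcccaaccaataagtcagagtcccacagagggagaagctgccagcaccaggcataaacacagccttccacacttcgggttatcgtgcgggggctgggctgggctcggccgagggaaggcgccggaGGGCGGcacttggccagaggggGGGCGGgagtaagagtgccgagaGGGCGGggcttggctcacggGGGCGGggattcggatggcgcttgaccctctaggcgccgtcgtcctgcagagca
Kat5 (chr19:5659723-5660022, minus strand): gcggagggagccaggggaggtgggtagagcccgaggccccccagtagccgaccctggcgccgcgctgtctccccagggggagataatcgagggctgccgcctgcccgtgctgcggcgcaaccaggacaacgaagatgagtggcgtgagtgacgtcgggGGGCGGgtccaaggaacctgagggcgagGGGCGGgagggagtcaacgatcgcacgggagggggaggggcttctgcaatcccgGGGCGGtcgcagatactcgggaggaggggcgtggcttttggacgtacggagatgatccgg
Sirt2 (chr7:28465927-28466226, plus strand): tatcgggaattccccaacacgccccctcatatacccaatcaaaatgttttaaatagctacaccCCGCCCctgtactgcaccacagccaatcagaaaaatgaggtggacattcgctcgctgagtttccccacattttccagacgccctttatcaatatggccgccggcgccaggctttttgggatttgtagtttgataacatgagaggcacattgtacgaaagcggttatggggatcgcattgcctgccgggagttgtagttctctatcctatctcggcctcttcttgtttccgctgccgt
Kat2a (chr11:100603244-100603543, minus strand): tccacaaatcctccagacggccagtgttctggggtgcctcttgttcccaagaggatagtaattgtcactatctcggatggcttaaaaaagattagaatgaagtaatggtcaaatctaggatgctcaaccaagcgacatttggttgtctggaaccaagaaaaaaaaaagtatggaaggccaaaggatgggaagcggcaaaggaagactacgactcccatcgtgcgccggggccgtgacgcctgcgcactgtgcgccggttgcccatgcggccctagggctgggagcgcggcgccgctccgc
The Sirt1 window held 7 matches, the Sirt3 window 4, the Kat5 window 3, the Sirt2 window 1 and the Kat2a window 0. Sirt3 and Kat5 each had another, more upstream start, nearer to the annotated start of the gene, whose window held 0. Crebbp had 2 matches, Ep300 1, Kat2b 0 in both of its windows, and Sirt6 0 in one window and 1 in the other. At least 1 match was thus found for 7 of the 9 genes, and as many genes when only bases before the start were read. Counted by window, 7 of the 13 windows of these genes held a match. Of 32851 mouse windows of this length, 35.7% held a match and 10.7% held 3 or more. The printed windows were picked by the genes' changes and, for Sirt3 and Kat5, hold the matches, so their counts are not comparable with these shares. A match describes the letters of the window only, and the genes with matches included Sirt2, which rose, and Ep300 and Crebbp, which did not pass the test.

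The libraries held 15523054 to 17938286 fragments, and 1 fragment on a transcript of 2000 bases was worth 0.0279 to 0.0322 FPKM (fragments scaled by transcript length and library total). Sp1 averaged 21.2 ± 1.77 FPKM in CTR and 10.6 ± 1.53 in dKO cells (mean ± SD, n = 6 here and for every group below), with no overlap. Sp3 was 27.7 ± 2.31 and 25 ± 1.64 FPKM, with overlap and an adjusted p of 0.0902 in limma, so its transcript level does not separate the labels. The paper reports reduced Sp1 and Sp3 protein in aortic endothelium of dKO mice, a different tissue and measure. Markers of other cells moved with the groups. All 10 macrophage markers were higher in dKO cells, with summed levels of 717 to 1260 FPKM in CTR and 2330 to 5300 in dKO libraries, and 9 of 10 endothelial markers were also higher (169 to 251 against 308 to 425 FPKM). Mesothelial markers were higher for 5 of 6 genes (28.8 to 38.6 against 66.3 to 146 FPKM), and leukocyte markers for 3 of 3 tested of 9 in the table (3.38 to 6.12 against 12.9 to 26.5 FPKM). The leukocyte sums were low in CTR, and whether these 3 genes met the expression filter only through the dKO libraries was not checked. Their count as higher may therefore not be independent of the filter. Of 7 fibroblast markers tested, 3 were lower and 1 higher (2140 to 2710 against 849 to 1670 FPKM), and of 8 proliferation markers 4 were lower (81.0 to 239 against 84.8 to 117 FPKM). Smooth muscle and lung epithelial markers overlapped in their sums, with 2 and 1 higher among 7 tested each. Of all genes tested, 20.4% were higher and 32.6% lower. The extraction text of the labels speaks of retinas, and all 7 retina markers in the table stayed under 1 FPKM. The part of these shifts in the results below was not tested, and in bulk RNA fewer cells of a type and less RNA per cell cannot be told apart.

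The knockout comparison asks which of these enzymes change in message when Sp1 and Sp3 are deleted in the endothelium. Sirt1, Sirt3, Kat2a, Kat5 and Kat6a were lower in dKO cells and Sirt2 was higher. Ep300, Crebbp, Kat2b and Sirt6 did not pass the test. Mean levels in dKO cells ran from 60.8% of the CTR mean for Sirt3 to 132% for Sirt2. Thus 6 of 10 genes had an adjusted p under 0.05 in limma on log2(FPKM + 1), 5 lower and 1 higher, beside 53.1% of the 12467 genes tested (32.6% lower and 20.4% higher). Groups did not overlap for 3 of the 10, all lower, beside 27.4% of all genes (16.1% lower and 11.3% higher). None passed the log2 fold change of 1.5 that the study required in addition, which 1.98% of all genes did with an adjusted p under 0.05. Read as a linear fold of the group means, 1.5 was exceeded by Sirt3 alone of the 10 (ratio of means 0.608), beside 24.4% of all genes. The median log2 fold change was −0.20 over the 10 genes and −0.10 over all genes, and the latter was −0.02 after median-of-ratios scaling.

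**Figure D1:**
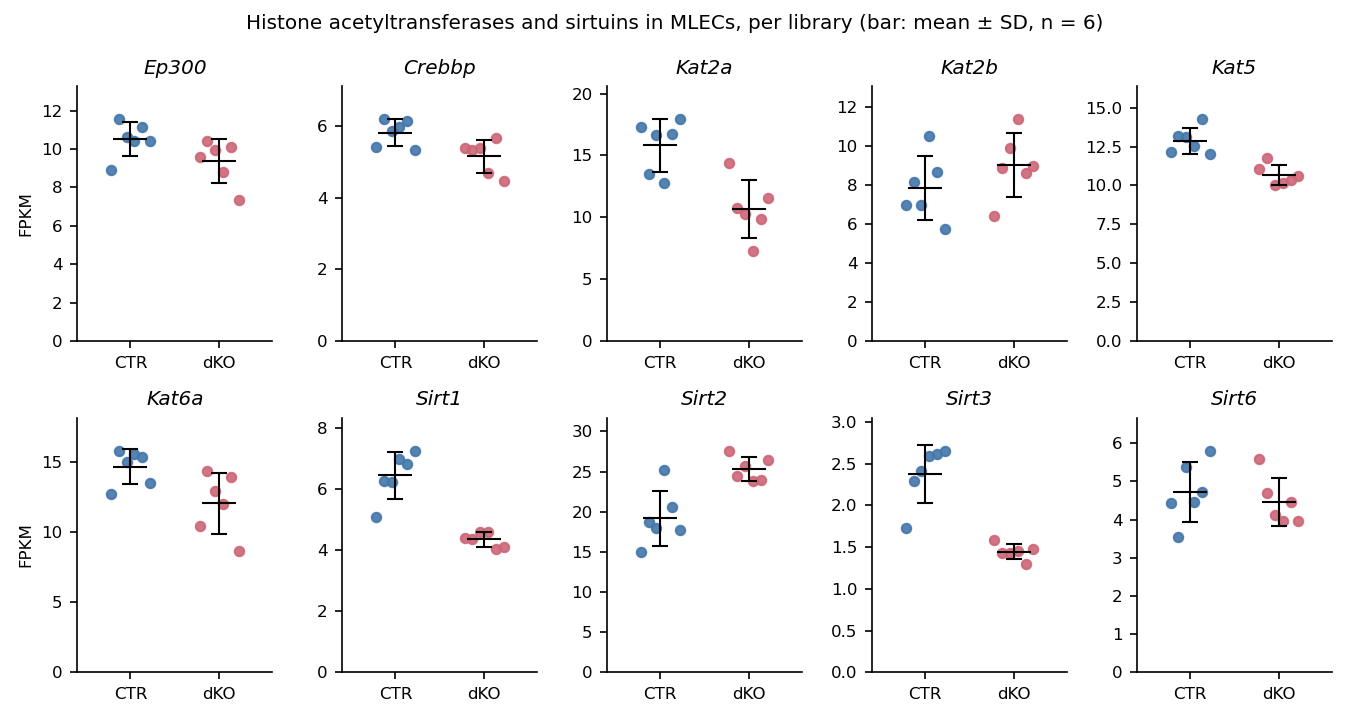
FPKM of each of the 10 genes in every library (1 panel per gene, y axis from 0), with CTR and dKO libraries as points and the bar giving mean ± SD, n = 6. The dKO points of Sirt1, Sirt3 and Kat5 lie below all CTR points, those of Sirt2 lie in the upper part of the CTR range or above it, and the other genes overlap.

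Among the sirtuins, the nuclear enzyme Sirt1 (ENSMUSG00000020063, chr10:63154581-63217483, minus strand) was the gene with the smallest adjusted p of the 10. Its level was 5.07 FPKM in the lowest, 6.55 in the median and 7.25 in the highest CTR library. In dKO libraries it was 4.05, 4.38 and 4.60 FPKM. All 6 dKO libraries lay below all CTR libraries. Sirt1 averaged 6.44 ± 0.782 FPKM in CTR and 4.35 ± 0.236 in dKO cells, which is 67.5% of the CTR mean, with a log2 fold change of −0.47 (SE 0.0757, adjusted p = 0.000235 in limma). An exact two-sided permutation test over the 924 splits gave p = 0.00216, the smallest this design allows.

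Sirt3 (ENSMUSG00000025486, chr7:140443577-140462311, minus strand), the main deacetylase of the mitochondrial matrix, had the lowest level of the 10 genes and the largest fall relative to CTR. CTR libraries held 1.73 FPKM at the lowest, 2.50 at the median and 2.66 at the highest. The dKO libraries held 1.3, 1.44 and 1.58 FPKM, again with no overlap. The mean went from 2.38 ± 0.348 to 1.45 ± 0.0922 FPKM, with a log2 fold change of −0.46 (SE 0.0785, adjusted p = 0.000359 in limma) and an exact permutation p of 0.00216. Between 136 and 270 fragments stood behind each value, and adding 1 FPKM before the logarithm shrinks the fold change of such a low gene. The lowest CTR library was replicate 1 for both Sirt1 and Sirt3, at 5.07 and 1.73 FPKM, and the next CTR value was 6.25 FPKM for Sirt1 and 2.30 for Sirt3.

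Sirt2 (ENSMUSG00000015149, chr7:28466160-28488090, plus strand), which deacetylates tubulin among other substrates, moved the other way. It ran from 14.9 FPKM through a median of 18.4 to 25.2 FPKM in CTR libraries, and from 23.9 through 25.1 to 27.6 FPKM in dKO libraries. CTR replicate 4, at 25.2 FPKM, made the groups overlap, and 3 of the 6 dKO libraries lay above every CTR library. The means were 19.2 ± 3.44 and 25.4 ± 1.49 FPKM, 132% of CTR, with a log2 fold change of 0.40 (SE 0.0989, adjusted p = 0.00458 in limma, exact permutation p = 0.00866). Sirt6 (ENSMUSG00000034748, chr10:81455262-81463631, minus strand), a chromatin-bound deacetylase of histone H3 in DNA repair and telomere upkeep, was at 3.55 to 5.80 FPKM in CTR (median 4.59) and 3.95 to 5.60 in dKO libraries (median 4.29). The dKO range lay inside the CTR range. Its log2 fold change was −0.06 with a 95% interval of −0.28 to 0.16 (adjusted p = 0.628 in limma), and its sign turned with median-of-ratios scaling (0.01, adjusted p = 0.916 in limma).

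Expressed as ratios within a library, which cancel the library scale, the sirtuins shifted against each other. Sirt2 stood at 6.67 to 9.72 times Sirt3 in CTR libraries (8.09 ± 1.04) and at 16.4 to 18.5 times in dKO libraries (17.5 ± 0.738), with no overlap. The ratio of Sirt2 to Sirt1, chosen after the values were seen, was 2.44 to 3.60 in CTR and 5.20 to 6.45 in dKO libraries. These ratios restate opposite changes of the genes and are given without a test. For Sirt6 over Sirt7 the ranges were 0.608 to 1.07 and 0.508 to 0.777 and overlapped.

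**Figure D2:**
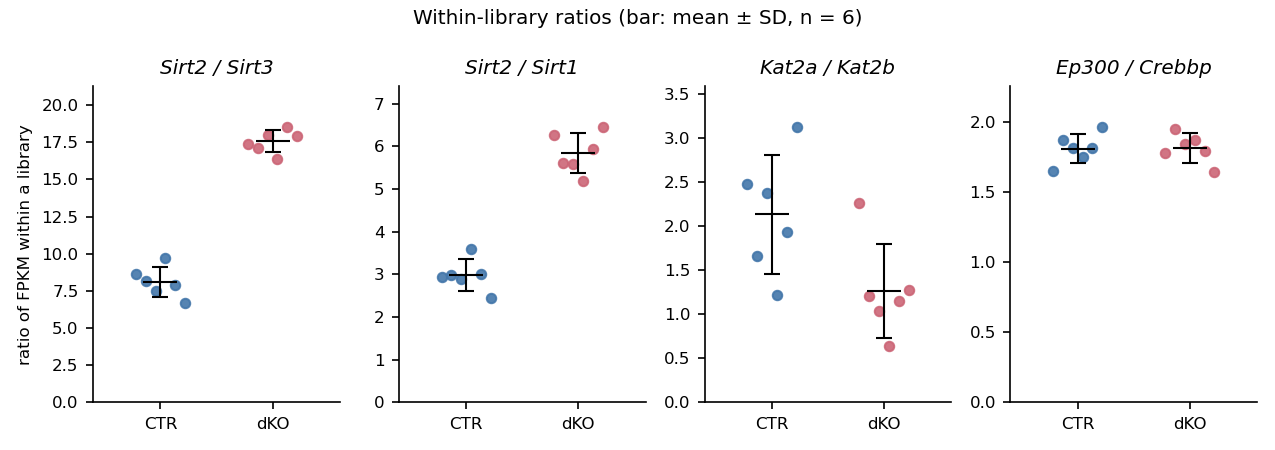
Ratio of the FPKM of paired enzymes within each library (y axis from 0, no unit), with CTR and dKO libraries as points and the bar giving mean ± SD, n = 6. Sirt2 over Sirt3 and Sirt2 over Sirt1 separate the groups, Kat2a over Kat2b is lower on average in dKO with overlap, and Ep300 over Crebbp is at 1.81 in both.

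The other 3 sirtuins were also measured. Sirt4, a mitochondrial sirtuin, fell from 5.38 ± 0.514 to 3.14 ± 0.257 FPKM with no overlap (log2 fold change −0.62, SE 0.0700, adjusted p = 1.62e-05 in limma). Sirt5, the mitochondrial desuccinylase, had a log2 fold change of −0.09 (adjusted p = 0.394 in limma). Sirt7, of the nucleolus, had 0.20 (5.998 against 7.05 FPKM, adjusted p = 0.0874 in limma), and it passed the threshold with median-of-ratios scaling (0.28, adjusted p = 0.0207 in limma). Of 4 regulators of sirtuins, 1 was lower, beside 32.6% of all genes. This was the Sirt1 inhibitor Ccar2 (DBC1, log2 fold change −0.23, adjusted p = 0.00777 in limma, named after its value was seen). It no longer passed with median-of-ratios scaling.

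Sirtuins use NAD+, and genes of NAD synthesis and use moved in both directions, with 6 higher and 7 lower of 15 tested. The shares over all genes were 20.4% higher and 32.6% lower. Cd38, a cell-surface enzyme that degrades NAD+, rose from 9.84 ± 0.839 to 26.6 ± 5.88 FPKM (log2 fold change 1.33, SE 0.119, adjusted p = 3.36e-06 in limma). Parp14, a mono-ADP-ribosyltransferase, rose from 4.64 ± 1.04 to 12.9 ± 4.81 FPKM (1.25, SE 0.199, adjusted p = 0.000213 in limma). Naprt, which makes NAD+ from nicotinic acid, fell from 11.4 ± 1.56 to 5.76 ± 1.59 FPKM (−0.90, SE 0.152, adjusted p = 0.000329 in limma). Parp2, a poly(ADP-ribose) polymerase of DNA repair, fell from 8.80 ± 0.923 to 5.18 ± 0.376 FPKM (−0.66, SE 0.0713, adjusted p = 1.22e-05 in limma). None of these 4 overlapped between groups. Nampt, the rate-limiting enzyme of the salvage route from nicotinamide, did not pass (0.24, SE 0.222, adjusted p = 0.375 in limma). The macrophage marker sum rose in the same libraries as Cd38 and Parp14, from at most 1260 to at least 2330 FPKM, and its part in them was not tested. A list of 10 genes drawn up around the substrates of Sirt3 had 3 lower and 1 higher, beside 32.6% and 20.4% of all genes. The share of lower genes was thus near that of all genes. It also holds Acss2 and Foxo3, whose proteins act mainly outside mitochondria and whose messages did not pass the test, and it lacks the mitochondrial Acss1 described below with acetyl-CoA supply. The higher gene, the glutamate dehydrogenase Glud1 (log2 fold change 0.20, adjusted p = 0.0363 in limma, named after its value was seen), no longer passed in 7 of the 12 fits that left out 1 library. The largest fall was Ogg1, a glycosylase for oxidised guanine, from 8.54 ± 1.01 to 5.43 ± 1.01 FPKM (−0.58, SE 0.106, adjusted p = 0.000615 in limma), and the antioxidant enzyme Sod2 did not pass (0.36, SE 0.290, adjusted p = 0.310 in limma).

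Among the acetyltransferases, Kat2a (ENSMUSG00000020918, chr11:100595572-100603310, minus strand) had the largest fall on the log2(FPKM + 1) scale. CTR libraries ran from 12.8 FPKM through a median of 16.7 to 17.9 FPKM. The dKO libraries ran from 7.29 through 10.5 to 14.4 FPKM. All but 1 of the dKO libraries, replicate 1 at 14.4 FPKM, lay below every CTR library. Kat2a averaged 15.8 ± 2.13 FPKM in CTR and 10.7 ± 2.33 in dKO cells, 67.5% of CTR, with a log2 fold change of −0.54 (SE 0.131, adjusted p = 0.00410 in limma, exact permutation p = 0.00649). Of all genes tested, 78.8% had a smaller absolute log2 fold change.

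Its paralog Kat2b (ENSMUSG00000000708, chr17:53873889-53979749, plus strand) did not fall with it. Kat2b was at 5.75 to 10.5 FPKM in CTR (median 7.56) and 6.39 to 11.4 in dKO libraries (median 8.92), with a log2 fold change of 0.18 and a 95% interval of −0.11 to 0.48 (adjusted p = 0.267 in limma). Kat2a exceeded Kat2b 1.22- to 3.12-fold in CTR libraries and stood at 0.642 to 2.26 times Kat2b in dKO libraries. The medians of this ratio were 2.16 and 1.18, and the ranges overlapped. A pseudogene, Kat2b-ps, shares 95.079% identity with Kat2b over 2479 bases and was listed at no more than 0.0708 FPKM.

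Partner subunits of Kat2a and Kat2b in SAGA and ATAC were lower for 12 of 22 tested and higher for 0. The shares of all genes were 32.6% and 20.4%. With median-of-ratios scaling 8 were lower, beside 24.2% of all genes. The falls with the largest size were those of Supt3, a core SAGA subunit, from 3.25 ± 0.708 to 1.64 ± 0.180 FPKM (log2 fold change −0.68, SE 0.105, adjusted p = 0.000187 in limma) and Tada2a, the ATAC adaptor of the catalytic module, from 7.91 ± 0.754 to 4.62 ± 0.595 FPKM (−0.67, SE 0.0817, adjusted p = 3.25e-05 in limma). Taf9 stayed under 1 FPKM in all libraries and was not tested. The median log2 fold change over the 22 genes was −0.23, beside −0.10 over all genes.

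Kat5 (ENSMUSG00000024926, chr19:5653038-5660271, minus strand) changed little in size yet without overlap. Its FPKM was 12.03 in the lowest, 12.8 in the median and 14.3 in the highest CTR library, and 10.04, 10.5 and 11.8 in dKO libraries. The means were 12.9 ± 0.830 and 10.7 ± 0.651 FPKM, 82.8% of CTR, with a log2 fold change of −0.25 (SE 0.0591, adjusted p = 0.00334 in limma, exact permutation p = 0.00216). The spans of Kat5 and Rnaseh2c, introns included, share 4489 bases on opposite strands, and their transcripts align at 100% identity over 649 bases. The strand setting of the counting is not given in the sources used here, so reads of the shared part cannot be assigned with certainty. Rnaseh2c itself went from 11.9 to 14.2 FPKM (log2 fold change 0.30, adjusted p = 0.207 in limma).

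Subunits of the TIP60 complex were lower for 13 of 15 tested and higher for 0, with a median log2 fold change of −0.37. Of all genes, 32.6% were lower and 20.4% higher. With median-of-ratios scaling 10 were lower, beside 24.2% of all genes. Dmap1 fell from 10.03 ± 0.779 to 6.31 ± 0.837 FPKM (−0.60, SE 0.0816, adjusted p = 7.04e-05 in limma). Vps72, a histone H2A.Z chaperone, fell from 12.2 ± 1.596 to 7.89 ± 0.589 FPKM (−0.56, SE 0.0802, adjusted p = 0.000104 in limma). Neither overlapped between groups. The other 2 subunits were Morf4l2 at −0.18 (adjusted p = 0.0505 in limma) and Mrgbp at 0.12 (adjusted p = 0.268 in limma).

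Kat6a (ENSMUSG00000031540, chr8:23349545-23433275, plus strand) lay closest to the threshold. It ran from 12.7 FPKM through 15.2 to 15.8 FPKM in CTR libraries and from 8.63 through 12.4 to 14.3 FPKM in dKO libraries. The lowest value belonged to dKO replicate 6, and 3 of the 6 dKO libraries lay within the CTR range. The means were 14.6 ± 1.25 and 12.03 ± 2.18 FPKM, with a log2 fold change of −0.28 (SE 0.109, adjusted p = 0.0468 in limma, exact permutation p = 0.0303). The call was lost in 13 of 24 alternatives, among them median-of-ratios scaling (−0.19, adjusted p = 0.174 in limma) and the fit without dKO replicate 6 (−0.19, adjusted p = 0.0848 in limma). Kat6a stood at 4.60 to 4.94 times its paralog Kat6b in CTR and at 3.82 to 4.59 times in dKO libraries, next to each other without overlap. Kat6b, far lower in level at 3.09 against 2.80 FPKM, did not pass the test (−0.11, adjusted p = 0.225 in limma).

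Subunits of the MOZ, MORF and HBO1 complexes were lower for 5 of 8 tested, beside 32.6% of all genes. Brpf3, a scaffold of the HBO1 complex, fell from 6.48 ± 0.257 to 3.91 ± 0.458 FPKM (−0.61, SE 0.0675, adjusted p = 1.43e-05 in limma). Meaf6, shared by these complexes and TIP60, fell from 3.58 ± 0.142 to 2.21 ± 0.222 FPKM (−0.52, SE 0.0612, adjusted p = 2.45e-05 in limma). Neither overlapped between groups.

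Ep300 (ENSMUSG00000055024, chr15:81469540-81537206, plus strand) and Crebbp (ENSMUSG00000022521, chr16:3899192-4031861, minus strand) were each a little lower without passing the test. Ep300 was at 8.93 to 11.6 FPKM in CTR (median 10.5) and at 7.32 to 10.4 in dKO libraries (median 9.77), with a log2 fold change of −0.16 (95% interval −0.34 to 0.03, adjusted p = 0.138 in limma). Crebbp was at 5.33 to 6.19 FPKM in CTR (median 5.92) and at 4.46 to 5.66 in dKO libraries (median 5.36), with a log2 fold change of −0.15 (95% interval −0.29 to −0.01 before adjustment, adjusted p = 0.0713 in limma). In 4 of the 6 dKO libraries each gene stayed within its CTR range. The ratio of Ep300 to Crebbp was 1.81 ± 0.104 in CTR and 1.81 ± 0.105 in dKO cells. Among 5 cofactors of the pair that were tested, 2 were lower, beside 32.6% of all genes. One was Carm1, an arginine methyltransferase (log2 fold change −0.35, adjusted p = 0.00354 in limma, named after its value was seen). The other was the E-protein Tcf3, from 22.6 ± 2.12 to 16.2 ± 1.51 FPKM (−0.45, SE 0.0772, adjusted p = 0.000362 in limma).

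**Figure D3:**
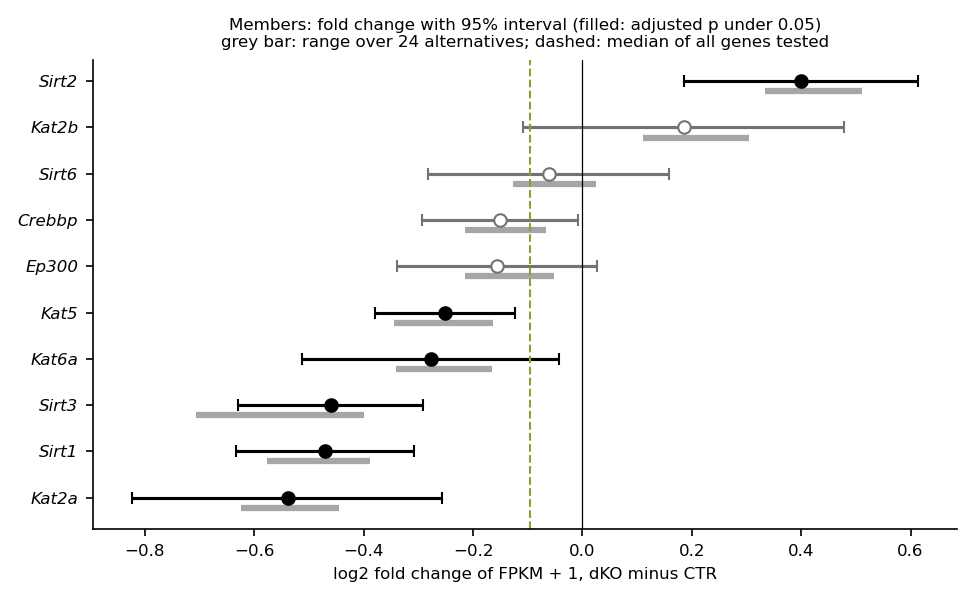
Log2 fold change (dKO minus CTR, on the log2(FPKM + 1) scale) of the 10 genes with 95% intervals from limma. Sirt2 lies to the right of 0, Kat2a, Sirt1, Sirt3, Kat5 and Kat6a to the left, and the intervals of Ep300, Kat2b and Sirt6 cross 0.

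Beyond the 10 genes, 12 other histone acetyltransferases were tested and 5 were lower, 0 higher, beside 32.6% and 20.4% of all genes. With median-of-ratios scaling 1 was higher, beside 25.8% of all genes. Elp3, the catalytic subunit of Elongator, fell from 22.8 ± 2.02 to 17.8 ± 0.842 FPKM with no overlap (−0.34, SE 0.0645, adjusted p = 0.000778 in limma). The other 4, named after their values were seen, were Kat7 (−0.37), Kat8 (−0.16), Kat14 (−0.43) and Ncoa1 (−0.35), all with overlap. Of the MSL and NSL subunits that work with Kat8, 4 of 9 were lower. Mcrs1 fell from 23.1 ± 0.561 to 16.5 ± 1.84 FPKM (−0.47, SE 0.0685, adjusted p = 0.000112 in limma), and Kansl3 from 12.01 ± 1.07 to 8.75 ± 0.617 FPKM (−0.41, SE 0.0681, adjusted p = 0.000275 in limma).

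Genes that supply acetyl-CoA, the donor of the acetyl group, were lower for 5 and higher for 1 of 10, beside 32.6% and 20.4% of all genes. Pdha1, of pyruvate dehydrogenase, fell from 57.5 ± 2.09 to 46.6 ± 3.40 FPKM (−0.30, SE 0.0578, adjusted p = 0.000921 in limma), and the mitochondrial acetate ligase Acss1 rose from 0.950 ± 0.155 to 2.59 ± 0.447 FPKM (0.88, SE 0.0903, adjusted p = 9.06e-06 in limma). With median-of-ratios scaling 3 were lower, beside 24.2% of all genes. Acss1 had a CTR median of 0.963 FPKM and met the filter of 1 FPKM in 6 libraries through the dKO libraries (lowest 2.15 FPKM). Its count as higher is therefore not independent of the filter. Bromodomain proteins, which read acetyl-lysine, were lower for 4 of 12, a share near the 32.6% of all genes, among them Pbrm1 (25.8 ± 2.19 to 18.7 ± 2.38 FPKM, adjusted p = 0.000983 in limma) and Brd9 (6.68 ± 0.175 to 4.70 ± 0.163 FPKM, adjusted p = 1.6e-05 in limma). Zinc-dependent histone deacetylases, the classes that share targets with sirtuins but need no NAD+, were lower for 5 of 9. Hdac2 went from 26.0 ± 2.90 to 17.3 ± 2.20 FPKM (−0.56, SE 0.0936, adjusted p = 0.000296 in limma), and Hdac8 from 3.38 ± 0.598 to 1.97 ± 0.141 FPKM (−0.55, SE 0.0903, adjusted p = 0.000283 in limma).

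Counted together, the lists other than the 10 genes held 132 genes tested, of which 67 (50.8%) were lower and 8 (6.06%) higher, beside 32.6% and 20.4% of all genes. With median-of-ratios scaling 52 (39.4%) were lower and 12 (9.09%) higher, beside 24.2% and 25.8% of all genes (49.9% in either direction). Of the 8 higher genes, 6 were in the NAD list. The lists were written with earlier results of these data known, so these shares are not independent of the data, and the lists were not tested as sets.

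**Figure D4:**
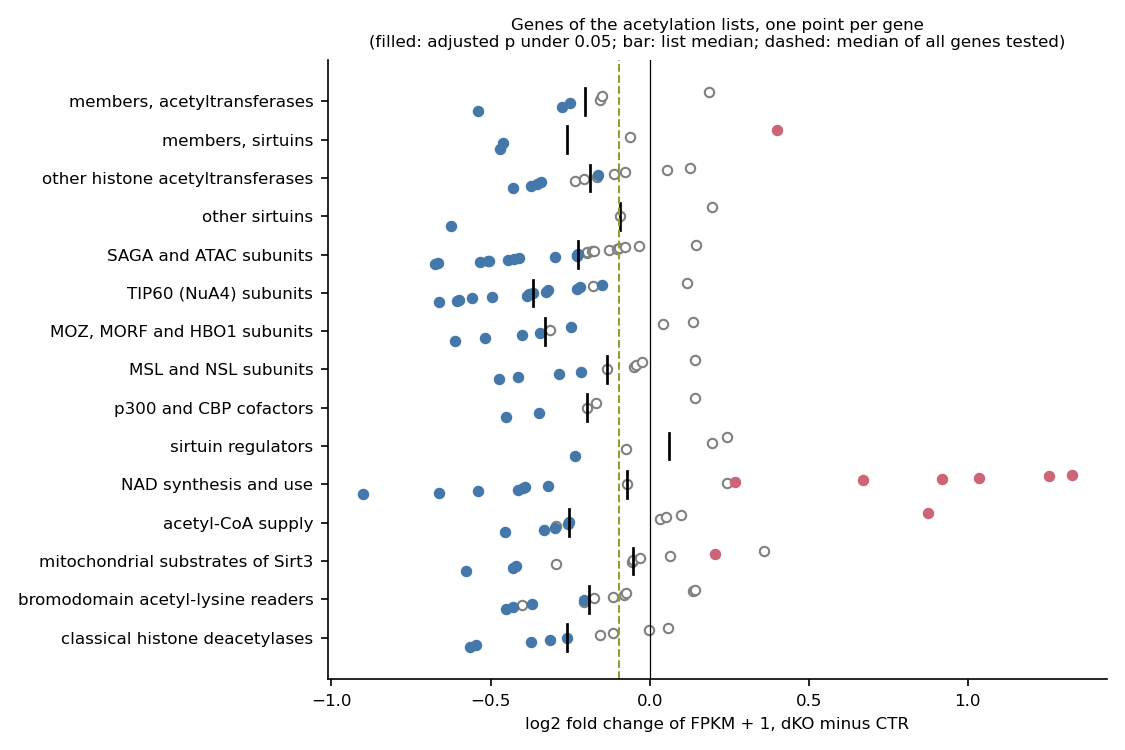
Log2 fold change (dKO minus CTR, on the log2(FPKM + 1) scale) of the tested genes in each list, with genes past an adjusted p of 0.05 marked and the median of each list drawn. The TIP60 list has the lowest median, −0.37, and the NAD list spans both directions, from −0.90 for Naprt to 1.33 for Cd38.

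The order of levels, which FPKM allows because it is per length, differed between the groups at ranks 2 and 3 and at ranks 7 to 9. By the CTR mean, Sirt2 came first, followed by Kat2a, Kat6a, Kat5, Ep300, Kat2b, Sirt1, Crebbp, Sirt6 and Sirt3. Sirt2 exceeded Kat2a in 4 of 6 CTR libraries and Kat2a exceeded Kat6a in 4 of 6, so these neighbours were not apart, whereas Kat5 and Ep300, and Sirt6 and Sirt3, had ranges that did not touch. In dKO cells the order was Sirt2, Kat6a, Kat2a, Kat5, Ep300, Kat2b, Crebbp, Sirt6, Sirt1 and Sirt3. Sirt2 was then above the next gene in 6 of 6 libraries with separate ranges, Kat2a and Kat5 were each the higher in 3 of 6, and Sirt6 and Sirt1 likewise. Sirt1, above Crebbp in 5 of 6 CTR libraries, stood below it on average in dKO cells.

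Several of these genes start beside a gene on the opposite strand, within 1000 bases in the GENCODE annotation. Ap3m2, a subunit of the AP-3 adaptor whose start lies 238 bases from that of Kat6a, rose from 3.60 ± 0.242 to 5.19 ± 0.482 FPKM with no overlap (log2 fold change 0.42, SE 0.0664, adjusted p = 0.000196 in limma), while Kat6a was lower. Psmd13, a proteasome subunit starting 457 bases from Sirt3, did not pass (25.9 against 28.3 FPKM, log2 fold change 0.12, adjusted p = 0.243 in limma). Nfkbib, an inhibitor of NF-kappaB starting 777 bases from Sirt2, did not pass either (11.7 against 10.3 FPKM, −0.17, adjusted p = 0.261 in limma), nor did Dnajc12 beside the outermost start of Sirt1 (0.889 against 1.16 FPKM, 0.20, adjusted p = 0.104 in limma). The RefSeq start of Sirt1 whose window is printed above lies 42669 bases from that outermost start. Partners of Ep300 and Sirt6 did not reach 1 FPKM in 6 libraries and were not tested. The partner of Sirt6, Ankrd24, was at 1.17 ± 0.260 FPKM in CTR and 0.717 ± 0.106 in dKO cells. In 5 of the 6 dKO libraries Ankrd24 lay below every CTR library. Other genes share exonic or intronic bases with these on the opposite strand, and neither Ric8a beside Sirt3 (log2 fold change −0.01, adjusted p = 0.926 in limma) nor Herc4 beside Sirt1 (−0.13, adjusted p = 0.0589 in limma) passed the test. Over gene spans, introns included, Sirt3 shares 458 bases with Psmd13 and 709 with Ric8a, and Sirt2 shares 778 with Nfkbib. Sirt1 shares 707 with Herc4, Kat6a 239 with Ap3m2, and Sirt6 1276 with BC025920 and 106 with Ankrd24. As for Kat5, the strand setting is not given, so reads of these shared parts cannot be assigned with certainty.

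Kat2a and Sirt2 were also compared with all other tested genes by how their levels varied among libraries after the group means were taken out. The highest Pearson correlations of log2(FPKM + 1) over the 12 libraries were 0.967 for Fbl, 0.966 for Nop2 and 0.963 for Timm8a1 with Kat2a, and 0.945 for Sat1, 0.936 for Ell and 0.934 for Idnk with Sirt2. Each is the top of 12466 genes, and the values share library and depth, so they are given as descriptions. Fbl and Nop2 encode nucleolar methyltransferases of ribosomal RNA, Timm8a1 a mitochondrial import chaperone, Sat1 a polyamine acetyltransferase, Ell an elongation factor and Idnk a gluconate kinase.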

How the data were processed

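RNA-seq was made on 6 CTR and 6 dKO libraries of MLECs, grouped by the sample labels. Columns of CTR libraries were matched by name, and the remaining 6 columns, named for tamoxifen, were matched to the knockout group by exclusion, which Sp1 levels bear on. The authors deposited FPKM values per gene. Per their methods, reads were trimmed with Trimmomatic and aligned to mm39 with STAR, and uniquely aligned reads were kept with sambamba. The submitters' processing notes name Bowtie2 2.2.3, HISAT2 2.1.0, TopHat2 and DESeq2 instead, with no role. The counting program, annotation and strand setting are not given in the sources used here.

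Here, log2(FPKM + 1) was tested with limma 3.58.1 (eBayes with trend, R 4.3.3) over all 12467 genes that reached 1 FPKM in 6 or more libraries, with Benjamini-Hochberg adjustment, and single genes with a two-sided exact permutation test. Fold changes are on the log2(FPKM + 1) scale and understate those of low genes. Whole fragments were recovered from the FPKM for 28687 of 28689 genes and used for depth and for alternatives only. The lowest chi-square per degree of freedom over the 30 within-group pairs of libraries was 11.3, so no 2 libraries of a group agree within counting noise. Scripts were tested on simulated data. Symbols and positions came from GENCODE vM39 on GRCm39 (27706 genes matched by identifier). Motifs were searched on both strands.

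The genes and lists were chosen with earlier results of these data known. Named genes were the 10 genes, Sp1, Sp3, ratio partners, neighbours by start, the 2 largest rises and 2 largest falls of each list among those past the threshold without overlap, and the 3 genes that vary most like the member with the largest rise and the one with the largest fall on the log2(FPKM + 1) scale.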

Additional observations from a re-analysis of the deposited data

Results flagged for a closer look

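In 6 of 92 groups of 6 libraries examined, the gap of 1 library to its neighbour took up more of the group's range than Dixon's 95% critical value allows, where chance alone gives about 1 in 20, or 4.6. None of the 10 acetyltransferases and sirtuins was among them. Sirt7 was at 7.28 FPKM in CTR replicate 4, beside 5.40 to 5.90 in the other CTR libraries, and its log2 fold change passed the threshold without that library (0.25, adjusted p = 0.0313 in limma). Idnk was at 5.81 FPKM in CTR replicate 4, beside 3.31 to 4.01. Nfkbib was at 15.9 FPKM in CTR replicate 6, beside 9.76 to 11.8. Among dKO libraries, Meaf6 was at 2.62 FPKM in replicate 3, beside 1.96 to 2.20. In dKO replicate 1, Nop2 was at 41.4 FPKM, beside 13.7 to 22.9, and Parp2 at 5.93 FPKM, beside 4.89 to 5.15.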

How the results depend on the processing

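Kat2a, Kat5, Sirt1, Sirt2 and Sirt3 kept their direction and passed the threshold in 24 of 24 alternatives (12 other settings and 12 fits that each left out 1 library), and Ep300 and Kat2b passed in none. Their log2 fold changes ranged from −0.62 to −0.45 for Kat2a, −0.34 to −0.16 for Kat5, −0.58 to −0.39 for Sirt1, 0.33 to 0.51 for Sirt2 and −0.71 to −0.40 for Sirt3. Kat6a passed in 11 of 24. It did not pass with length and GC trends removed (−0.165), median-of-ratios scaling (−0.190), limma-voom on recovered fragments with that scaling (−0.205), quantile normalization (−0.239) or no filter (−0.277, with more genes tested), nor without dKO replicate 6 or 7 other single libraries, and leaving out 1 library gave −0.328 to −0.194. Crebbp passed when rescaled to TPM (−0.215), as did Sp3 (−0.195), which also passed without CTR replicate 6, with −0.180 to −0.110 over single libraries left out. Sirt6 turned positive with median-of-ratios scaling (0.014), that scaling in limma-voom (0.019) and quantile normalization (0.024), never past the threshold, and Kat6b turned to 0.028 with length and GC trends removed. The cause of these changes was not tested. Limma-voom and the removal of trends were chosen after seeing the data. Of genes past the threshold 38.5% were higher, against 51.6% with median-of-ratios scaling (3213 higher and 3012 lower). Depth limits low genes such as Sirt3, with 136 to 270 fragments.

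Libraries with the same replicate number are not said to be paired, so the numbers were not taken as pairs in the main fit. The correlation of their deviations from the group means was −0.108 to 0.565 over the 6 numbers. It was highest for replicates 4 (0.565) and 1 (0.436), and whether these share a batch or source was not tested. With the replicate number as a block, 6955 genes passed the threshold instead of 6614, and the 10 genes gave the same 6 calls, with adjusted p of 0.0130 for Kat6a and 0.0148 for Sirt2 in limma.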

Other observations

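Single libraries stood at the edge of their group for several of the 10 genes. CTR replicate 1 was the lowest CTR library for 5 of them (Ep300, Kat6a, Sirt1, Sirt2 and Sirt3), and dKO replicate 6 the lowest dKO library for 4 (Ep300, Crebbp, Kat6a and Sirt6). CTR replicate 6 was the highest of its group for 4 (Kat2a, Sirt1, Sirt3 and Sirt6), as was dKO replicate 1 (Kat2a, Sirt2, Sirt3 and Sirt6). None of these values passed Dixon's criterion.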
